A study of Mus musculus with 16 samples.

Results

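The merged list of OCT4 binding sites in 2TS22C mouse embryonic stem (ES) cells held 32 peaks, of 26704 in all, at 7 genes of epithelial cell adhesion: Cdh1, Cdh2, Cdh3, Ctnna1, Epcam, Cldn6 and Tjp1. A peak was counted at a gene when its midpoint fell inside the gene body or within 50 kb of any annotated transcript start of that gene (build mm10, GENCODE M21). The gene set was chosen from this list with its contents known, and Cdh1 was picked because of its cluster of peaks, so the number of peaks per gene is a description and was not tested. All 7 genes held at least 1 peak, and no peak was counted at more than 1 of them.

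The series asks how mouse ES cell chromatin depends on OCT4 and SOX2, and comprises 16 ChIP-seq libraries in 8 groups of 2 replicates. In 2TS22C cells a doxycycline-repressible Sox2 transgene is the sole source of SOX2, and OCT4 was precipitated from cells given 1 ug/ml doxycycline for 26 h (SOX2 OFF, 2 libraries) or left untreated over the same 26 h (SOX2 ON, 2 libraries). Both groups were grown in serum with LIF and the kinase inhibitors CHIR99021 and PD184352. The 2 replicates of a group are biological duplicates by the study's methods. The list gives 3 columns, chromosome, start and end, with no height, read count or library name, so depth is unknown, no value has a replicate error, and the SOX2 OFF and SOX2 ON groups were not compared here. A gene's RNA level was not measured either, and a peak near a gene is not evidence that OCT4 acts on it.

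Classical cadherins are calcium-dependent adhesion proteins that bind the same cadherin on the neighbouring cell and are tied to actin through β-catenin and α-catenin at adherens junctions. Tight junctions, built from claudins and held to the cytoskeleton by ZO proteins, seal the space between epithelial cells, and EpCAM is a separate epithelial adhesion glycoprotein. Mouse ES cells are epithelial in character: they carry E-cadherin and EpCAM, and both are lost or reduced as cells leave the pluripotent state through an epithelial to mesenchymal transition. OCT4 and SOX2 bind DNA together on a composite motif in which a SOX site is followed by the octamer bound by OCT4.

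Peaks were numbered along the chromosome within each gene and searched on both strands for the composite motif, taken as the SOX part CATTGT, 1 T and the octamer ATGCAAAT, with at most 3 mismatches over its 15 bases. The octamer was also searched alone and without mismatch, as was the SOX core (CCATTGT or CCTTTGT). These motifs overlap: the octamer is the second part of the composite motif, and the CCATTGT form of the SOX core ends with its SOX part, while the CCTTTGT form differs from that part by 1 base. The peaks at Cdh1, Cdh3 and Tjp1 with a composite match are shown first, each as up to 300 bases of the plus strand of mm10. They were chosen because they hold a match to the composite motif within the mismatches allowed. The sixth sequence is the peak at Tjp1 with an octamer and no composite match. Capitals mark the composite match, the octamer and the SOX core.
Cdh1 peak 2, chr8:106603952-106604191: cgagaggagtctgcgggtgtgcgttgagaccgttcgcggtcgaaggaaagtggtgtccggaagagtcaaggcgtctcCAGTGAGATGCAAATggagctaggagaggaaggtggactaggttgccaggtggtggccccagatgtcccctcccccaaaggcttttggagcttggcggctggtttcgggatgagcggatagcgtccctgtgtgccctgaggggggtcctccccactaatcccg
Cdh3 peak 1, chr8:106516034-106516333: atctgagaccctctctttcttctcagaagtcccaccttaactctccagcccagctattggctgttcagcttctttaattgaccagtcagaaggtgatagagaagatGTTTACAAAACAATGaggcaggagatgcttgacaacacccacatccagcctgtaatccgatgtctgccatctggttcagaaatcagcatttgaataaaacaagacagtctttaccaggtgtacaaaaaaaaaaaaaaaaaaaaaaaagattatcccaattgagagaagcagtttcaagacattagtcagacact
Tjp1 peak 3, chr7:65443221-65443465: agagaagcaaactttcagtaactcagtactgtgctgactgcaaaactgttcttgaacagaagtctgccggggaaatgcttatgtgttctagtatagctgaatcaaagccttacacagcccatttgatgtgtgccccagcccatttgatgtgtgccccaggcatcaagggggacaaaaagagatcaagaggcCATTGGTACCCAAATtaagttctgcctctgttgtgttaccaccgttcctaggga
Tjp1 peak 5, chr7:65454210-65454509: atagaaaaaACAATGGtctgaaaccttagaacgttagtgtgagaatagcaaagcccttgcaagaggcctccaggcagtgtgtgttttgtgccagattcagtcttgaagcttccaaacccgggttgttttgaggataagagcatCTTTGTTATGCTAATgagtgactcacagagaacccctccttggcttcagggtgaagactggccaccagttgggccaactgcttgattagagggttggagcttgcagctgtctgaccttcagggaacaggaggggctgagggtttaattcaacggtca
Tjp1 peak 7, chr7:65545504-65545803: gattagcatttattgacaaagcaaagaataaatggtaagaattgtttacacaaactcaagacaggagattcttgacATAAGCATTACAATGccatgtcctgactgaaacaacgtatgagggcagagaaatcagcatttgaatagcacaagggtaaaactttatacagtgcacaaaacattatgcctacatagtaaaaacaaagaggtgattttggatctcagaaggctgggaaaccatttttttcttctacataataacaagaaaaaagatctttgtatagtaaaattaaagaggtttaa
Tjp1 peak 4, chr7:65450276-65450575: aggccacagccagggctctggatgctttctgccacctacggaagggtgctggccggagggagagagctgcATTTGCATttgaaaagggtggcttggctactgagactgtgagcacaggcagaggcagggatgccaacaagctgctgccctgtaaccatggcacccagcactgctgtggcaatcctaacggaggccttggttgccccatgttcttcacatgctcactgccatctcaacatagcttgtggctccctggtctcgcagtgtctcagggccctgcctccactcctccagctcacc

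The matched 15 bases of these peaks are set side by side on the strand of the match, with capitals where the base equals that of the composite motif and lower case where it is a mismatch. None of the 5 was a perfect match. The match in Tjp1 peak 5 had 2 mismatches and the other 4 had 3.
Cdh1 peak 2, plus strand: CAgTGagATGCAAAT
Cdh3 peak 1, minus strand: CATTGTTtTGtAAAc
Tjp1 peak 3, plus strand: CATTGgTAccCAAAT
Tjp1 peak 5, plus strand: CtTTGTTATGCtAAT
Tjp1 peak 7, minus strand: CATTGTaATGCttAT
The octamer was whole only in Cdh1 peak 2, where all 3 mismatches fell in the SOX part and the spacer. In Cdh3 peak 1 the SOX part and spacer were whole and the 3 mismatches fell in the octamer. A match is a description of letters and not an observed binding site.

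Cdh1 encodes E-cadherin, the cadherin of epithelia and of ES cells. It held 8 peaks over 117 kb of searched sequence (chromosome 8, 106603351 to 106670246, plus strand), or 6.84 peaks per 100 kb. Among 21938 protein-coding genes counted in the same way, 73% had at least 1 peak, the median gene had 2 peaks and 1.00 peak per 100 kb, and the highest 10% of densities began at 3.69 per 100 kb. Counts at or above 8 were found for 1.99% of coding genes. Because Cdh1 was picked on this cluster, these values only say how large it was.

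Of the 8 Cdh1 peaks, 1 lay upstream and 7 in the gene body. They spanned 45.3 kb, and gaps between neighbouring midpoints ran from 1.69 to 16.0 kb with a median of 5.17 kb. Peak 1 was 3.45 kb upstream of the first annotated start and, at 550 bp, was the widest of all 32. Peak 2 (106603952 to 106604191, 240 bp) lay 0.721 kb into the gene, in the 0.744 kb intron 1 of the main coding transcript, and its midpoint was 71.5 bp from an alternative start at 106604143. It was the peak closest to a start among the 32, had 61.2% GC, and held the composite match shown above, whose octamer centre was 32 bp from the midpoint. The remaining 6 peaks all lay in intron 2, which is 44.6 kb long, at 5.89, 7.58, 15, 18.2, 25.8 and 41.8 kb from the first start.

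Beside the composite match and octamer of peak 2, Cdh1 peak 6 had a SOX core. Peaks 1, 3, 4, 5, 7 and 8 had none of the composite match, octamer or SOX core, as did 56.3% of all 26704 peaks. Peak 4 held none of the 9 motifs searched. The other peaks of this group held other short motifs: KLF letters (GGGTGTGG) in peaks 1 and 3, TFAP2 letters (GCCNNNGGC) also in peaks 1 and 3, TEAD letters (GGAATG) in peaks 3, 5 and 7, and an ESRRB match (TCAAGGTCA) in peak 8. The E-box CACCTG, the letters bound by the SNAI and ZEB repressors of E-cadherin, was present in peaks 1, 2 and 6. Over all 26704 peaks the E-box was present in 30.8%, TEAD letters in 28.3% and TFAP2 letters in 12.5%. KLF letters (GGGTGTGG or GGGCGTGG) were present in 9.19% of all peaks and the ESRRB match in 3.08%. Peak 8 was nearer to the start of Tango6 (37.9 kb) than to a Cdh1 start (41.0 kb). Shortening the distance from 50 to 10 kb left the Cdh1 count at 8, but 7 of these peaks lie in the gene body and are counted at any distance. Only peak 1, 3.45 kb upstream, depended on the distance.

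Cdh3, which encodes P-cadherin, lies just upstream of Cdh1 on the same strand (chromosome 8, 106510891 to 106557297) and held 1 peak. That peak (106516034 to 106516570, 537 bp) was in intron 2, 5.41 kb from the start, with 40.6% GC. Its composite match lay 155 bp from the midpoint and it also held an E-box. The next peak was 64.8 kb away. With 1.00 peak per 100 kb Cdh3 was at the median density of coding genes, and 27% of coding genes had fewer peaks. The neighbouring genes of P-cadherin and E-cadherin thus held 1 and 8 peaks.

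Cdh2 encodes N-cadherin, the cadherin of neural and mesenchymal cells. It held 3 peaks over a gene of 220 kb on chromosome 18, or 1.11 per 100 kb, all in introns. Cdh2 peak 2 (16670016 to 16670428, 413 bp) lay 153 bp from an internal alternative start, in the 124 kb intron 2 of the longest coding transcript, and held both a composite match and a separate octamer. Cdh2 peak 3, in the same intron, held none of the searched motifs. Peak 1 (514 bp, the widest) lay in intron 14 and held a SOX core 16.5 bp from its midpoint. Gaps were 43.5 and 55.4 kb, wider than any gap at Cdh1.

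Ctnna1 encodes αE-catenin, which links the cadherin and β-catenin complex to actin. It held 5 peaks (2.14 per 100 kb): 2 upstream, 2 in intron 1 and 1 downstream. Peak 3 (35119150 to 35119485 on chromosome 18, 336 bp) lay 124.5 bp from a Ctnna1 start, had the highest GC content of the 32 (64.9%) and the highest ratio of observed to expected CpG (0.933), and held no composite match, octamer or SOX core. Peak 4 (510 bp), 19.4 kb into the gene, held 2 composite matches, centred 53.5 and 61.5 bp to either side of its midpoint, the first with an octamer and the second with a SOX core. It was the only one of the 32 peaks with 2 composite matches.

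The outer Ctnna1 peaks lay close to other transcripts. Peak 1, 47.9 kb upstream of the first start, held an octamer, and peaks 1 and 2 were in introns of the non-coding gene AC131675.3. Peak 5 lay in an intron of Sil1, 3.32 kb from a Sil1 start, 44.2 kb from the nearest Ctnna1 start and 178 kb from the first. With the starts of protein-coding transcripts alone, peak 5 was not counted and Ctnna1 held 4 peaks. Ctnna1 peak 1 was the member nearest the 50 kb limit from inside, followed by Cldn6 peak 2 at 46.4 kb. The nearest peaks left out were 51.1 kb from a Cldn6 start (322 bp wide) and 59.3 kb from the Cdh3 start (484 bp wide).

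**Figure D1:**
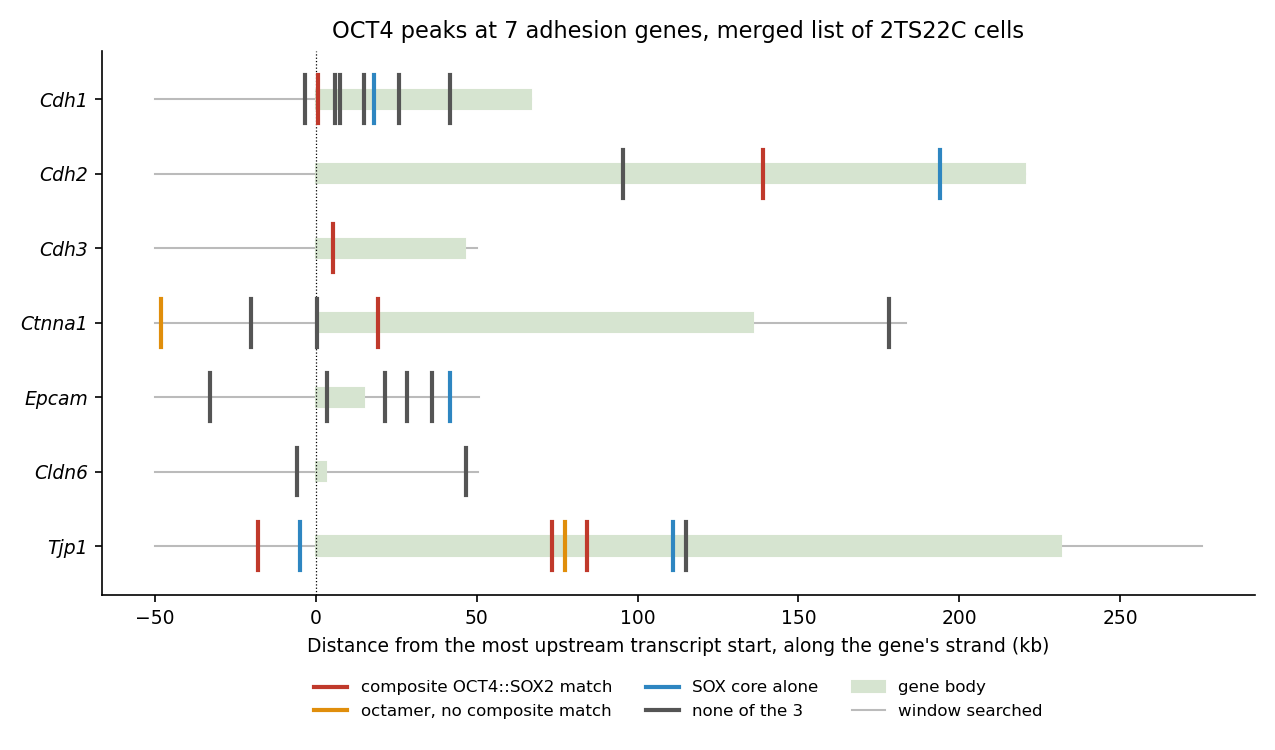
OCT4 peaks (vertical ticks) at the 7 genes by distance of the midpoint from the most upstream transcript start, in kb along the gene's strand. Green boxes are gene bodies, grey lines the searched windows, and colours give the motif content. The 8 Cdh1 peaks fall between -3.45 and 41.8 kb, 4 of the 6 Epcam peaks lie beyond the gene's end, and the 3 composite matches at Tjp1 are 84.4 and 73.4 kb into the gene and 17.9 kb upstream.

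Epcam encodes the adhesion glycoprotein EpCAM (chromosome 17, 87635979 to 87651129, plus strand). It held 6 peaks, 5.96 per 100 kb, second among the 7 genes to Cdh1. Only 1 lay in the gene body: peak 2 (87639387 to 87639707, 321 bp), in intron 2 and 2.87 kb from a start. Another lay 32.9 kb upstream, and 4 lay downstream of the gene's end, at 21.6, 28.5, 36.2 and 41.8 kb from the first start. These 4 were nearer to a start of another coding gene than to an Epcam start, at 14.8, 7.84, 0.146 and 5.21 kb from it. The last of them, peak 6, lay in an intron of that gene. The widest was peak 6 (516 bp) and the narrowest peak 5 (248 bp). The Epcam count was the one most dependent on distance, with 1 peak within 10 kb, 2 within 25 kb and 8 within 100 kb.

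No Epcam peak held a composite match or an octamer. A SOX core was found in peak 6 alone, 235.5 bp from the midpoint. Peaks 2, 3 and 5 held none of the 9 searched motifs. Peaks 2, 3, 4 and 6 held the most repeated sequence. Of their bases 38.9%, 42.9%, 44.1% and 48.3% were repeat-masked, against 23.5% in peak 1 and 6.85% in peak 5. In a comparison of every peak with every other (alignment of at least 80 bp at 70% identity or more), these 4 peaks were alike 311, 173, 438 and 815 other peaks of the list.

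Peaks 3 and 4, 6.95 kb apart, were alike each other, with 90.5% identity over 95 aligned positions. The aligned stretches are shown on the plus strand of mm10 because they are the closest pair among the 32 peaks, with capitals where both have the same base and gaps left out.
Epcam peak 3, chr17:87657595-87657687: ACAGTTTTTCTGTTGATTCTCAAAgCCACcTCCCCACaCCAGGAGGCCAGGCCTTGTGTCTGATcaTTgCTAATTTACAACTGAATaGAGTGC
Epcam peak 4, chr17:87664410-87664504: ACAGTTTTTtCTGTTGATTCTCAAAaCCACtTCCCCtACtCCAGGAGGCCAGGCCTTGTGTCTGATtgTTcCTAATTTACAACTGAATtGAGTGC
Peaks 2 and 6 shared a second stretch at 76.3% identity over 97 positions. Reads from repeated sequence can be assigned to the wrong copy, and the part of this in the Epcam count was not tested.

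Cldn6 encodes claudin-6, a tight junction claudin of early embryonic epithelia (chromosome 17, 23679249 to 23682446, plus strand). Its gene body of 3.20 kb held no peak. The 2 peaks of its window were 5.73 kb upstream and 46.4 kb from the nearest Cldn6 start, in a region where 8 other coding genes have a start within the same window. Cldn6 peak 1 (23673417 to 23673621, 205 bp) was the narrowest of the 32, lay in a coding exon of Thoc6 and was 77 bp from a start of Hcfc1r1. Peak 2 (23725923 to 23726232, 310 bp) was 258.5 bp from a start of Pkmyt1, a kinase that inhibits entry into mitosis. Neither held a composite match, octamer or SOX core, and peak 1 held an E-box. By distance both peaks were nearer to these other genes than to Cldn6.

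Tjp1 encodes ZO-1, the scaffold that ties tight junction proteins to actin (chromosome 7, 65296165 to 65527781, minus strand). It held 7 peaks, 2.15 per 100 kb: 2 upstream and 5 in a 158 kb intron of a coding transcript with only 5 exons. The Tjp1 transcript with the longest coding sequence, which has 28 exons, covers none of the 7 peaks. The intronic peaks fell into 2 places, peaks 3, 4 and 5 between 73.4 and 84.4 kb into the gene and peaks 1 and 2 at 115 and 111 kb. No other coding gene has a start within the window. The nearest peak to a start was peak 6 (65532440 to 65532963, 524 bp), 4.92 kb upstream of the first start. It was also the widest and held 2 SOX cores.

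Tjp1 was the gene with most OCT4 and SOX2 motif matches. A composite match was found in 3 of its 7 peaks, an octamer in 1 other (peak 4, 77 bp from the midpoint), and a SOX core in peaks 2, 5 and 6. Tjp1 peak 5 (65454170 to 65454551, 382 bp) held the closest composite match of the 32 peaks, with 2 mismatches, and that match was centred 0.5 bp from the midpoint. Peaks 4 and 5 were 3.93 kb apart. Peak 7, 17.9 kb upstream, had 56.2% of its bases repeat-masked, the highest share of the 32, and was alike 43 other peaks of the list. Tjp1 peak 1 held none of the searched motifs and was alike 81 other peaks.

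**Figure D2:**
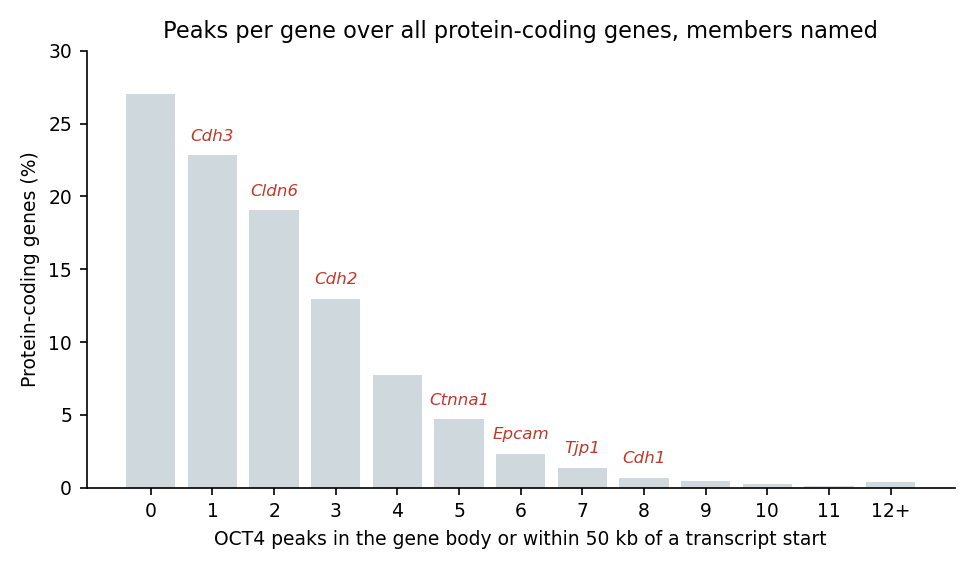
Share of 21938 protein-coding genes (vertical axis, %) by number of OCT4 peaks in the gene body or within 50 kb of a start (horizontal axis), with the 7 genes named above their bar. The genes range from 1 peak (Cdh3) to 8 (Cdh1), and the median coding gene has 2.

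The 7 genes thus ran from Cdh1 with 8 peaks through Tjp1 with 7, Epcam with 6, Ctnna1 with 5, Cdh2 with 3 and Cldn6 with 2 to Cdh3 with 1. Per 100 kb of window the order changed to Cdh1 (6.84), Epcam (5.96), Tjp1 (2.15), Ctnna1 (2.14), Cldn6 (1.99), Cdh2 (1.11) and Cdh3 (1.00). With no replicate list, the spread of these counts is unknown and no gene was called different from its neighbour in the order. Cdh1, Cdh2 and Ctnna1 had a peak within 1 kb of a start of their own, against 16.5% of all coding genes.

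Over all 32 peaks, a composite match was present in 7, or 21.9% (95% Wilson interval 11 to 38.8%), beside 11.5% of all 26704 peaks. The interval covers counting error only, since peaks at 1 gene are not independent, and it takes in the value of all peaks. With at most 4 mismatches the order turned, with 31.2% of the 32 beside 35.9% of all peaks. The best match had 3 mismatches in 6 of these peaks and 2 in the other. The octamer was present in 5 peaks, 15.6% (6.86 to 31.8%), beside 11% of all peaks. The SOX core was present in 7, 21.9% (11 to 38.8%), beside 30.3%. None of the 3 was found in 18 peaks, 56.2% (39.3 to 71.8%), beside 56.3% of all peaks. The composite matches were spread over 5 genes: 1 peak each at Cdh1, Cdh2, Cdh3 and Ctnna1 and 3 at Tjp1.

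Motifs of other factors were as thinly spread. The E-box was present in 8 of 32 peaks, 25.0% (13.3 to 42.1%) beside 30.8% of all peaks, and TEAD letters also in 8, beside 28.3%. KLF letters (GGGTGTGG or GGGCGTGG) were present in 4 peaks, 12.5% (4.97 to 28.1%) beside 9.19%, and TFAP2 letters in 4, beside 12.5%. ESRRB letters were present in 1 peak, beside 3.08%. The letters of the GRHL factors (AACCGGTT), which are activators of epithelial genes including Cdh1, were found in 0 of 32 peaks (interval to 10.7%) beside 0.228% of all peaks, a share too low for 32 peaks to resolve. For each of the 9 motifs the interval of the 32 peaks included the share of all peaks, and no difference from the whole list was tested. None of the 9 motifs was found in 7 of the 32 peaks, 21.9% beside 23.2% of all peaks.

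**Figure D3:**
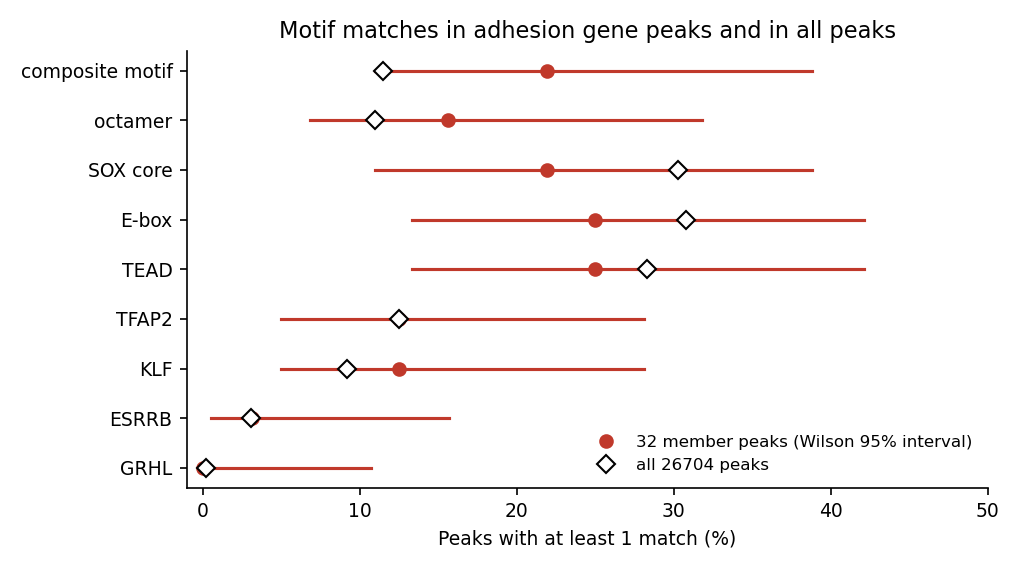
Share of peaks with at least 1 match (horizontal axis, %) for 9 motifs. Red points are the 32 adhesion gene peaks with their 95% Wilson interval and open diamonds are all 26704 peaks. Each interval includes the diamond, from the composite motif (21.9% beside 11.5%) to GRHL (0 beside 0.228%).

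In width the 32 peaks ran from 205 to 550 bp with a median of 382 bp, beside a median of 352 bp over all peaks, whose middle 50% lay between 267 and 471 bp. Their median GC content was 45.0% (36.2 to 64.9%) beside 46.4%. The peaks with most GC were Ctnna1 peak 3 and Cdh1 peak 2, both within 1 kb of a start, and the peak with least was Tjp1 peak 7. Repeat-masked bases had a median of 13.4% beside 13%, and only Tjp1 peak 7 was over 50% repeat-masked, beside 15.6% of all peaks. An alignment to at least 1 other peak was found for 8 of the 32 (25.0%) beside 32.7% of all peaks. Of these 8, 4 were at Epcam, 2 at Tjp1 and 1 each at Cdh1 and Cdh3.

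**Figure D4:**
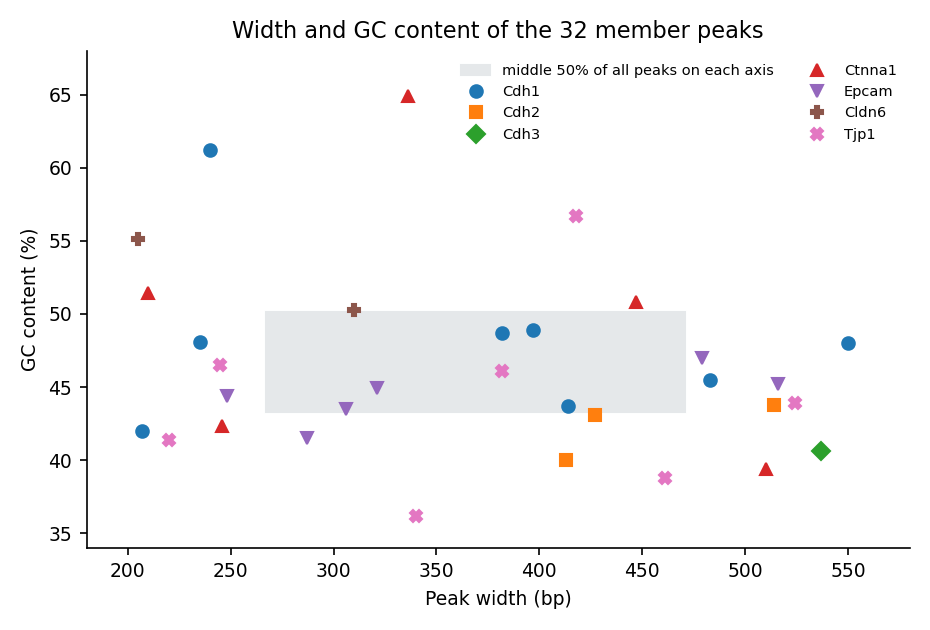
Width (horizontal axis, bp) and GC content (vertical axis, %) of the 32 peaks, with 1 symbol per gene. The grey box spans the middle 50% of all 26704 peaks on each axis. Ctnna1 peak 3 (64.9%) and Cdh1 peak 2 (61.2%) lie highest and Tjp1 peak 7 (36.2%) lowest.

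Position relative to genes was partly set by the rule, which takes in gene bodies. Midpoints fell in introns for 23 of 32 peaks, 71.9% beside 45.5% of all peaks, in intergenic sequence for 8, 25.0% beside 46.1%, and in a coding exon for 1. For 6 peaks, 18.8% (8.89 to 35.3%) beside 13.8%, the midpoint was within 1 kb of the start of any coding gene. In 3 of the 6 that gene was a member (Cdh1, Cdh2, Ctnna1), and for both Cldn6 peaks it was another gene, as given above. In all, 8 of the 32 peaks were nearer to the start of a coding gene outside the set than to one of their own gene. Another peak of the list lay within 10 kb for 16 of 32 peaks, 50.0%, beside 33.9% of all peaks, a value that follows in part from choosing Cdh1 for its cluster.

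A further 58 genes of cell junctions and epithelial identity were counted by the same rule, from a list also drawn up with earlier results known. Of these, 49 (84.5%) had at least 1 peak, beside 73% of coding genes, with a median of 3 peaks and of 2.00 per 100 kb. Counts by role were 14 of 16 adherens junction genes, 15 of 17 tight junction genes, 5 of 7 desmosome genes, 5 of 5 relatives or partner proteases of EpCAM, and 10 of 13 regulators of epithelial genes. The most peaks were at Magi1 (19), a tight junction scaffold, Ctnna2 (12) and Ctnna3 (8), both α-catenins, Cdh4 (9), which encodes R-cadherin, and the polarity gene Pard3 (8). These genes are 457 to 1574 kb long and their densities were 0.493 to 2.89 per 100 kb, below the 6.84 of Cdh1. The highest densities of the 58 were at shorter genes, Ovol2 with 5.95 per 100 kb and Grhl3 with 5, beside 5.96 at Epcam.

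A peak within 1 kb of an own start was found for 15 of the 58 genes, 25.9% beside 16.5% of coding genes. In the adherens junction group these were Ctnna2, Ctnna3, Ctnnd1 (p120-catenin), Vcl (vinculin) and Cdh6. The tight junction group included Magi1, Patj and Cldn7, and the desmosome group Pkp2 (plakophilin-2). Spint1, a protease inhibitor, was the only one in the EpCAM group. Among the regulators they were Elf3 and Grhl2, activators of epithelial genes, and Snai2 and Zeb2, which repress Cdh1. No peak was counted at Afdn, Cldn1, Cldn8, Grhl1, Nectin4, Perp, Pkp1, Twist1 or Zeb1. Ctnnb1, the β-catenin gene, had 3 peaks, none in its body.

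**Figure D5:**
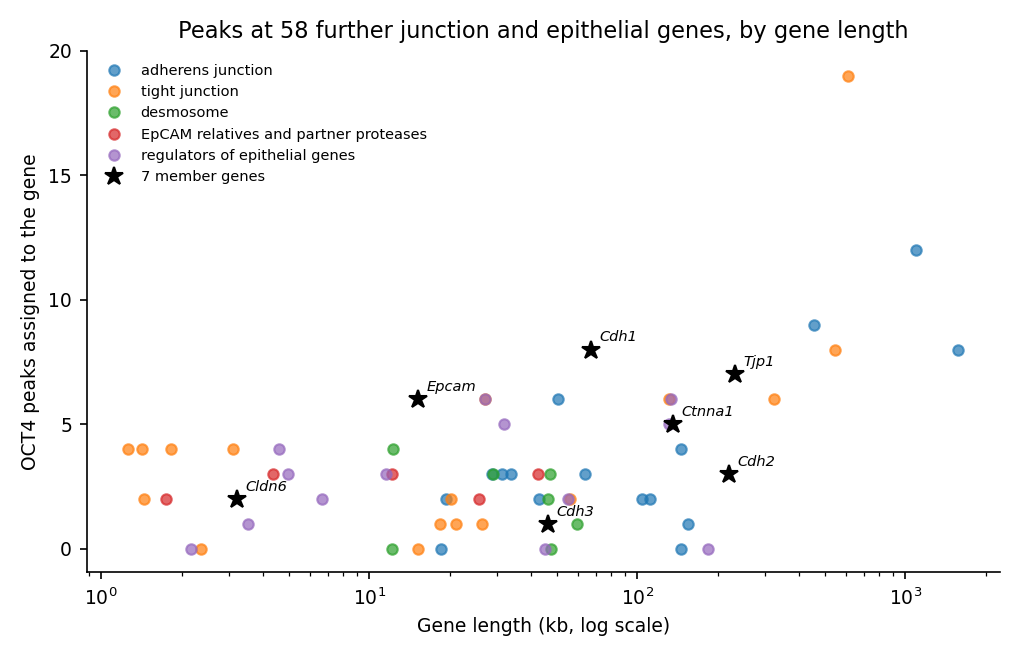
Number of OCT4 peaks (vertical axis) by gene length (horizontal axis, kb on a log scale) for the 58 further genes, coloured by role, and the 7 genes as black stars. Magi1 is highest with 19 peaks at 608 kb, and no further gene under 100 kb holds more than 6, beside 8 at Cdh1 (66.9 kb) and 6 at Epcam (15.2 kb).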

How the data were processed

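OCT4 was profiled by ChIP-seq in 2TS22C cells, in 2 SOX2 ON and 2 SOX2 OFF libraries. The authors deposited 1 merged peak list whose values are coordinates (chromosome, start and end in base pairs), with 0 columns of per-sample values. Per the study's methods and the submitters' processing notes, reads were aligned to mm10 with STAR 2.6.1c, duplicates removed with Picard, peaks called with MACS2 2.1.1.20160309 and files handled with bedtools, SAMtools and deepTools 3.1.3. Which libraries entered the merge is not given in the sources used here. Merging joins overlapping peaks, so a width is that of a union, and a missing peak may have been under the calling threshold.

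Midpoints were assigned to genes of GENCODE M21 on GRCm38 with 1-based coordinates, on chromosomes 1 to 19, X and Y. Introns were taken from the coding transcript with the longest coding sequence that covers the midpoint. Motifs were counted in the whole peak on both strands, and lower-case reference bases were taken as repeat-masked. Sequences are from the RefSeq copy of GRCm38. Sequence likeness was searched with blastn 2.17.0 (expect value 1e-05, word size 11). No test was run, because the list has no replicate, and shares carry 95% Wilson intervals. Assignment and motif counting were tested on simulated data. The genes, motifs and gene lists were chosen with earlier results of these data known. By rule the text names all 7 genes, the 5 further genes with most peaks, every further gene with a peak within 1 kb of its start, and genes nearer to a peak than the member, and describes peaks with a composite match, near a start, or widest. Some genes that the rule names are not reported here. The genes without a peak, Ctnnb1, Ovol2, Grhl3 and the repeat-rich peaks were added after their values were seen. Alternatives changed the distance, the part of the gene, the peak width, repeat content, motif mismatches, the stretch searched and the promoter distance. Scripts ran in Python 3.11.15 with SciPy 1.17.1 and NumPy 2.4.6, and plots were drawn with matplotlib 3.10.9.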

Additional observations from a re-analysis of the deposited data

How the results depend on the processing

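Of 53 alternatives for 9 results, 49 left the value within 1.5 times the reported count, within its interval or within the spread of the peaks. Counting gene bodies alone gave 19 peaks in place of 32, with Cldn6 at 0, and 24 of the 58 further genes with a peak in place of 49. With at most 2 mismatches the composite match was present in 3.12% of the 32 peaks and 2.21% of all peaks. With at most 4 mismatches it was present in 31.2% of the 32 and 35.9% of all peaks, so the share of the 32 peaks was above that of all peaks at 2 and 3 mismatches and below it at 4. The octamer with at most 1 mismatch, an alternative chosen after seeing the data, was present in 62.5% of the 32 and 53.5% of all peaks. Both motif shares move with the mismatches allowed. Gene body counts are lower because they search less sequence. The share of all coding genes with a peak in the gene body is not given here. The count of 24 of 58 therefore has no background beside it. No paired analysis was possible because the merged coordinates carry no replicate number. Depth, peak height and the effect of SOX2 loss on these peaks were not analysed here.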
